A study of Homo sapiens with 6 samples.

Results

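The genes described here are the ERBB receptors EGFR, ERBB2, ERBB3 and ERBB4 and the EGF family ligands AREG, EREG, HBEGF, TGFA, BTC and EGF, 10 genes chosen as a family. A gene was measured where a row of the deposited table was paired with its symbol and no other. That held for 9 of the 10 members, each with 1 row, among 18417 genes with such a row. AREG, the gene of amphiregulin, was not analysed here. The cells were AGS, an established line of human gastric adenocarcinoma, and were transfected either with CTNNB1 siRNA, against the gene of beta-catenin, or with non-targeting control siRNA. Each group had 3 arrays, numbered as biological replicates 1 to 3 in the sample titles, and RNA was taken 48 hours after transfection and read on Affymetrix Human Gene 1.0 ST arrays. The knockdown was a transient transfection of a single cell line, and how many siRNAs the reagent held is not given in the sources used here.

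EGF family ligands are made as transmembrane precursors, and cell surface proteases of the ADAM family shed the soluble factor. The ligands bind EGFR, ERBB3 or ERBB4, the receptors pair with each other, and the RAS/ERK and PI3K/AKT cascades carry the signal onward. ERBB2 has no known soluble ligand and acts as a partner, while ERBB3 has little kinase activity of its own and is the main docking receptor for PI3K. In the stomach these ligands take part in mucosal growth and repair, and ERBB2 is a drug target in gastric cancer.

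Beta-catenin acts at promoters and enhancers through TCF/LEF factors, so the promoter windows of the members were searched for the core letters CTTTGA and CTTTGT of that family. The letters TGAGTCA and TGACTCA of AP-1, the FOS/JUN factor downstream of ERK, were searched as well. Both strands were read, and no match of one motif overlapped a match of the other. RefSeq promoter windows (GRCh38.p14), 250 bases before to 50 bases after a start, were at hand for 9 of the 10 members. TCF/LEF letters were present in 26.2% of all 35116 such windows and AP-1 letters in 4.95%. Among the members, a downstream start of TGFA had 1 TCF/LEF match, an alternative start of EGFR had 2 AP-1 matches and EGF had 1 AP-1 match. The windows of ERBB2, ERBB4, AREG, EREG, HBEGF and BTC held neither. The first of the windows printed here is the only member window with TCF/LEF letters, the next holds 2 AP-1 matches, and the last belongs to HBEGF, the member whose level varied most between arrays. Capitals mark the matches, read 5′ to 3′ on the strand of the gene. These windows are chr2:70553397-70553696 (minus strand), chr7:55109589-55109888 (plus strand) and chr5:140346554-140346853 (minus strand).
TGFA: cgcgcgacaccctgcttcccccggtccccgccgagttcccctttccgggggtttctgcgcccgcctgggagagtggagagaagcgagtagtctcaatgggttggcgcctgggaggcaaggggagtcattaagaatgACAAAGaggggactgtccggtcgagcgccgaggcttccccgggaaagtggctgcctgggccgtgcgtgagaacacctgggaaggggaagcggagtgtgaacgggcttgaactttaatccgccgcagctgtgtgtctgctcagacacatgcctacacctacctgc
EGFR: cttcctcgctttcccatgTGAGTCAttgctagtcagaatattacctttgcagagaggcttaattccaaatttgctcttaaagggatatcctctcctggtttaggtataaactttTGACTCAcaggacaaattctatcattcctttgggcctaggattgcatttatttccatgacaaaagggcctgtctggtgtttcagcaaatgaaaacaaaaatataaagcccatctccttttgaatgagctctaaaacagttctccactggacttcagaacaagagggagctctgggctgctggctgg
HBEGF: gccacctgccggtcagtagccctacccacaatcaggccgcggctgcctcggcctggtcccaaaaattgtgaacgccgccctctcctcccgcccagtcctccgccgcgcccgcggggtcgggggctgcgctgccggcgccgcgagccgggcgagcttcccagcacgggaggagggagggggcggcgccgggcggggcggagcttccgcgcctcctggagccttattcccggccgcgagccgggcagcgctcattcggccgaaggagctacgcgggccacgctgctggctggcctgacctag
A match is a run of letters and not a measured site, and no binding was measured in these samples.

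CTNNB1 itself was 10.27, 10.78 and 10.58 on the log2 scale on CTNNB1 siRNA replicates 1 to 3, against 11.92, 11.76 and 11.75 on control siRNA replicates 1 to 3, so the silenced gene matched every label. Its adjusted p in limma was 0.232 over the 19460 rows tested. CTNNB1 siRNA replicate 1 stood apart, with Pearson correlations across rows of 0.962 to 0.965 with the other arrays, against 0.983 to 0.988 among the rest. It was the lowest of the 6 arrays for 31.3% of rows and the highest for 24.7%. Control siRNA replicate 1 was lowest for 20% and highest for 17.8%. None of the 6 measured epithelial markers lay in the dimmest 40% of rows. EPCAM averaged 11.51 after CTNNB1 siRNA and 11.38 after control siRNA, while CDH1, at 6.86 and 6.84, was no brighter than some markers of other cell types. Another EPCAM row averaged 11.43 and 11.06, a difference of 0.37, with 11.89 on CTNNB1 siRNA replicate 1. Of 11 measured markers of other cell types 9 lay in the dimmest 40%, those with a mean under 5.36, and COL1A1 (6.92 after CTNNB1 siRNA and 6.56 after control siRNA) and DES (7.12 and 6.80) were the exceptions. Of these 11 markers 10 had a higher mean after CTNNB1 siRNA, beside 49.2% of all rows, with a median log2 difference of 0.064. The groups were apart for 5, 4 higher and 1 lower, which is 45.5% beside 13.6% of all rows. EPCAM, CDH1 and DES were chosen after their values were seen. The epithelial list had a median log2 difference of 0.50, and its mean, set against the control mean, was 0.81, 0.29 and 0.29 on CTNNB1 siRNA replicates 1 to 3 and 0.11, -0.057 and -0.049 on control siRNA replicates 1 to 3.

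None of the 9 measured members passed the threshold of 0.05 on the adjusted p in limma, and 0 had an unadjusted p under 0.05. Over all rows tested 0.00514% passed the threshold, a single gene, and 5.64% had an unadjusted p under 0.05. Of the members 6 had a mean that was higher after CTNNB1 siRNA and 3 a lower one, with a median log2 difference of 0.098, beside a median of -0.004 and 49.2% higher over all rows. The groups were fully apart for 1 of the 9, EREG, beside 13.6% of all rows. Values are log2 expression after RMA, and they are not comparable between genes. In such bulk RNA, fewer cells expressing a gene and less RNA per cell cannot be told apart.

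**Figure D1:**
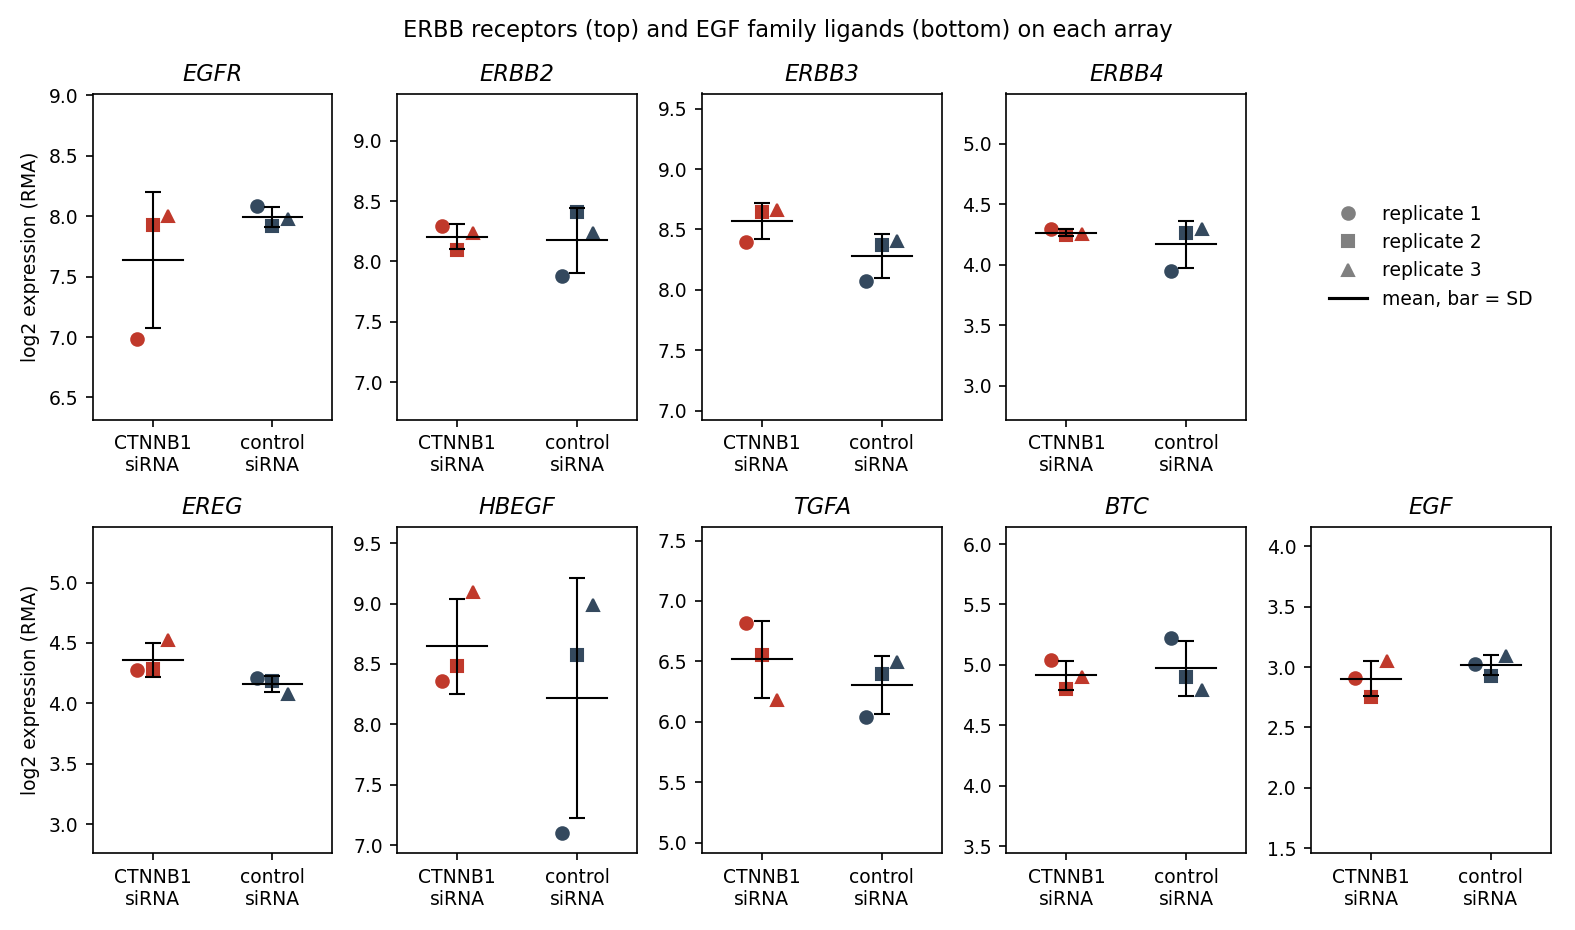
Log2 expression of the 9 measured members on each array, CTNNB1 siRNA left and control siRNA right, with the mean and SD of 3 arrays. Every panel spans the same height. EGFR was low on CTNNB1 siRNA replicate 1 (6.99) and HBEGF on control siRNA replicate 1 (7.10), the widest gaps to the next array among the panels.

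EGFR, the receptor of EGF, TGFA and amphiregulin, was 6.99, 7.93 and 7.999 on CTNNB1 siRNA replicates 1 to 3, against 8.09, 7.92 and 7.98 on control siRNA replicates 1 to 3. The first CTNNB1 siRNA array was low, and the other arrays of both groups lay within a narrow band and overlapped. The mean was 7.64 ± 0.56 (SD, n = 3) after CTNNB1 siRNA and 7.996 ± 0.085 (SD, n = 3) after control siRNA. The log2 difference was -0.36 (SE 0.26), with a 95% confidence interval of -0.97 to 0.25 (adjusted p = 0.816 in limma). Leaving out CTNNB1 siRNA replicate 1 gave -0.034. That array lay 0.936 below the next lowest for EGFR, a gap that 2.58% of all rows had or exceeded on the same array.

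ERBB3, the neuregulin receptor that couples to PI3K, was 8.39, 8.65 and 8.66 on CTNNB1 siRNA replicates 1 to 3, against 8.07, 8.37 and 8.41 on control siRNA replicates 1 to 3. In 8 of the 9 pairings of a CTNNB1 siRNA array with a control array the CTNNB1 siRNA value was the higher, and the groups overlapped at 1 array. The mean was 8.57 ± 0.15 (SD, n = 3) after CTNNB1 siRNA and 8.28 ± 0.18 (SD, n = 3) after control siRNA. The log2 difference was 0.29 (SE 0.16), with an interval of -0.077 to 0.65. This was the smallest p among the members (unadjusted p = 0.107, adjusted p = 0.816 in limma). The difference was positive in all fits that left out 1 array, between 0.18 and 0.37.

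ERBB2, the co-receptor targeted by trastuzumab, was 8.30, 8.09 and 8.23 on CTNNB1 siRNA replicates 1 to 3, against 7.88, 8.41 and 8.24 on control siRNA replicates 1 to 3. The CTNNB1 siRNA arrays all lay inside the range of the controls. Its log2 difference was 0.032, with an interval of -0.36 to 0.43, and the sign turned without control siRNA replicate 1 (-0.12) or CTNNB1 siRNA replicate 1 (-0.012). ERBB4, a neuregulin receptor with an active kinase, lay in the dimmest 40% of rows. It was 4.30, 4.25 and 4.25 on the CTNNB1 siRNA arrays, against 3.95, 4.26 and 4.30 on the control arrays. Control siRNA replicate 1 was the low array, and the difference of 0.098 (interval -0.24 to 0.44) was -0.014 without it.

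HBEGF, the heparin-binding ligand of EGFR and ERBB4, had the widest spread of the members. Its levels were 8.36, 8.48 and 9.09 on CTNNB1 siRNA replicates 1 to 3, against 7.10, 8.57 and 8.99 on control siRNA replicates 1 to 3. Control siRNA replicate 1 was far below all the other arrays, and the remaining controls lay within the range of the CTNNB1 siRNA arrays. The mean was 8.65 ± 0.39 (SD, n = 3) after CTNNB1 siRNA and 8.22 ± 0.99 (SD, n = 3) after control siRNA. The log2 difference of 0.43 (SE 0.45), 1.34-fold with an interval of 0.650 to 2.78-fold, was the largest of the members in size and did not pass (adjusted p = 0.844 in limma). A difference of that size or more, in either direction, was found in 9.91% of all rows. It was -0.14 without control siRNA replicate 1. Only 0.0719% of rows, 14 in all, lay as far below the next array on control siRNA replicate 1 as HBEGF did, a gap of 1.262. Among these 14, listed after their values were seen, were EGR1, an immediate early factor induced by ERK, CHAC1 and SLC7A11, genes of glutathione metabolism in the amino acid stress response, and TXNIP, a thioredoxin inhibitor.

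TGFA, a ligand of EGFR, was 6.82, 6.56 and 6.18 on CTNNB1 siRNA replicates 1 to 3, against 6.04, 6.39 and 6.49 on control siRNA replicates 1 to 3. The groups overlapped, with the highest value on CTNNB1 siRNA replicate 1 and the lowest on control siRNA replicate 1. The log2 difference was 0.21 (interval -0.26 to 0.68), and 0.060 without CTNNB1 siRNA replicate 1. EREG, the gene of epiregulin, a ligand of EGFR and ERBB4, was 4.28, 4.28 and 4.52 on the CTNNB1 siRNA arrays, against 4.21, 4.18 and 4.08 on the control arrays. Each CTNNB1 siRNA value was above each control value, by as little as 0.065 between the nearest arrays. The log2 difference was 0.20 (SE 0.14, interval -0.12 to 0.52), with an exact 2-sided permutation p of 0.1, the smallest that 3 arrays against 3 can give, and an adjusted p of 0.816 in limma. EREG lay in the dimmest 40% of rows, and RMA pulls differences of such rows towards 0.

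BTC, the gene of betacellulin, was 5.04, 4.80 and 4.90 on CTNNB1 siRNA replicates 1 to 3, against 5.22, 4.90 and 4.79 on control siRNA replicates 1 to 3. EGF itself was 2.91, 2.75 and 3.05 on the CTNNB1 siRNA arrays, against 3.03, 2.92 and 3.09 on the control arrays. Both genes were among the dimmest 40% of rows and their groups overlapped. The log2 difference was -0.059 (interval -0.43 to 0.32) for BTC and -0.11 (interval -0.44 to 0.22) for EGF. For dim rows a small difference does not show that the gene was unchanged.

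**Figure D2:**
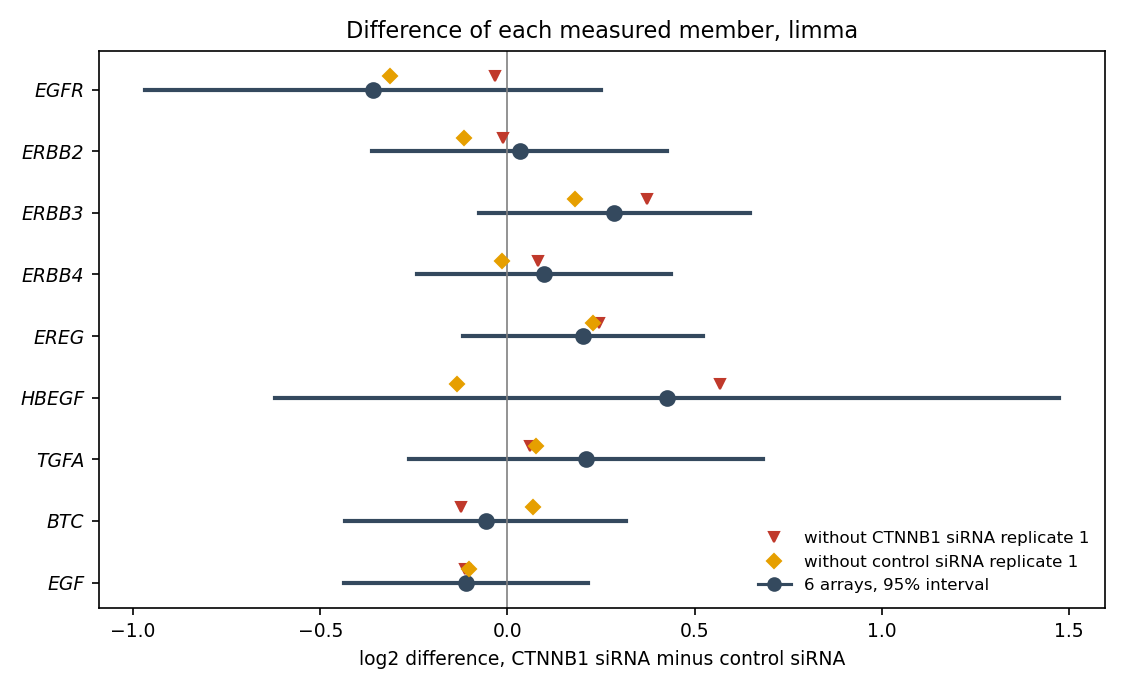
Log2 difference, CTNNB1 siRNA minus control siRNA, of each measured member, with circles and bars for 6 arrays and the 95% confidence interval. Triangles and diamonds give the difference without replicate 1 of either group. All intervals include 0, EGFR moved to -0.034 without CTNNB1 siRNA replicate 1, and HBEGF to -0.14 without control siRNA replicate 1.

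Control siRNA replicate 1 was the lowest of the 6 arrays for 5 of the 9 members (ERBB2, ERBB3, ERBB4, HBEGF and TGFA), beside 20% of all rows. The members' mean, set against the control mean, was 0.010, 0.055 and 0.18 on CTNNB1 siRNA replicates 1 to 3 and -0.19, 0.071 and 0.12 on control siRNA replicates 1 to 3, so the groups overlapped. Profiles over the 6 arrays were also compared after centring each gene on its own mean, as the root mean square distance in log2 units. The candidates were the genes whose mean reached the median of all rows, 9257 for EGFR and ERBB3. Those nearest to EGFR were NUS1 (0.0243), ABHD14A (0.0394) and RPL8 (0.0416), against 0.376 for EGFR about its own mean. All had their low value on CTNNB1 siRNA replicate 1, which was 6.99 for ABHD14A and 11.69 for RPL8. Nearest to ERBB3 were SUSD6 (0.0298), TTC39A (0.0484) and TYMP (0.0545), against 0.198 for ERBB3 itself. Nearest to EREG were ESPN (0.0235), GYS1 (0.0428) and CLIP3 (0.0442), against 0.135 for EREG itself. HBEGF was added after its values were seen. Its nearest gene, SLCO2A1, was at 0.161, against a wider spread of 0.652 for HBEGF itself. Distances were not scaled to a gene's own spread, so they cannot be compared between members. These distances describe 6 arrays and carry no test.

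ERK-response genes, the immediate early factors and feedback inhibitors that ERK induces, were the list closest to receptor output. Of 30 listed genes 29 were measured, 17 with a higher and 12 with a lower mean after CTNNB1 siRNA, and a median log2 difference of 0.041. Leaving out 1 array moved this median to between -0.020 (control siRNA replicate 1 left out) and 0.18 (control siRNA replicate 2 left out). None passed over all rows in limma (smallest adjusted p = 0.626), and 5 had an unadjusted p under 0.05, all higher, beside 3.04% of all rows in that direction. The groups were apart for 9 genes that were higher and 2 that were lower, beside 6.81% and 6.8% of all rows. PLAUR, the urokinase receptor gene, differed by 0.90 (SE 0.17). KLF6, a zinc finger factor, was 8.92, 8.77 and 8.89 on CTNNB1 siRNA replicates 1 to 3, against 7.68, 8.15 and 8.40 on control siRNA replicates 1 to 3, a difference of 0.78 (SE 0.20). EPHA2, an ephrin receptor tyrosine kinase, was 9.95, 9.42 and 9.35 on the CTNNB1 siRNA arrays, against 8.62, 9.09 and 8.85 on the control arrays, a difference of 0.72 (SE 0.21). In all of these genes every CTNNB1 siRNA array was above every control array, and the adjusted p was 0.626 for PLAUR and 0.816 for KLF6 and EPHA2.

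The array on which HBEGF was low was also the lowest for 19 of the 29 ERK-response genes, 65.5%, beside 20% of all rows. The mean of this list, set against the control mean, was 0.13, 0.21 and 0.25 on CTNNB1 siRNA replicates 1 to 3 and -0.37, 0.19 and 0.18 on control siRNA replicates 1 to 3. Controls 2 and 3 thus lay within the CTNNB1 siRNA arrays. EGR1, chosen after its values were seen, was 9.41, 10.30 and 10.74 on CTNNB1 siRNA replicates 1 to 3, against 7.56, 10.00 and 10.34 on control siRNA replicates 1 to 3. DUSP6, an ERK phosphatase gene chosen likewise, was 8.49, 7.34 and 7.45 on the CTNNB1 siRNA arrays, against 6.31, 7.72 and 7.74 on the control arrays. For both genes control siRNA replicate 1 was the low array, as for HBEGF, and the other controls overlapped the CTNNB1 siRNA arrays. FOS, chosen likewise, had the largest difference of the list, 1.29 (SE 0.39, adjusted p = 0.816 in limma), with the groups apart. Its levels were 9.52, 8.30 and 8.36 on the CTNNB1 siRNA arrays, against 6.76, 7.79 and 7.76 on the control arrays. IER2, chosen likewise, differed by 1.05 (SE 0.57), with 9.52 on CTNNB1 siRNA replicate 1 and the nearest arrays of the groups 0.039 apart. The part of the state of control siRNA replicate 1 in the HBEGF difference was not tested beyond leaving it out.

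**Figure D3:**
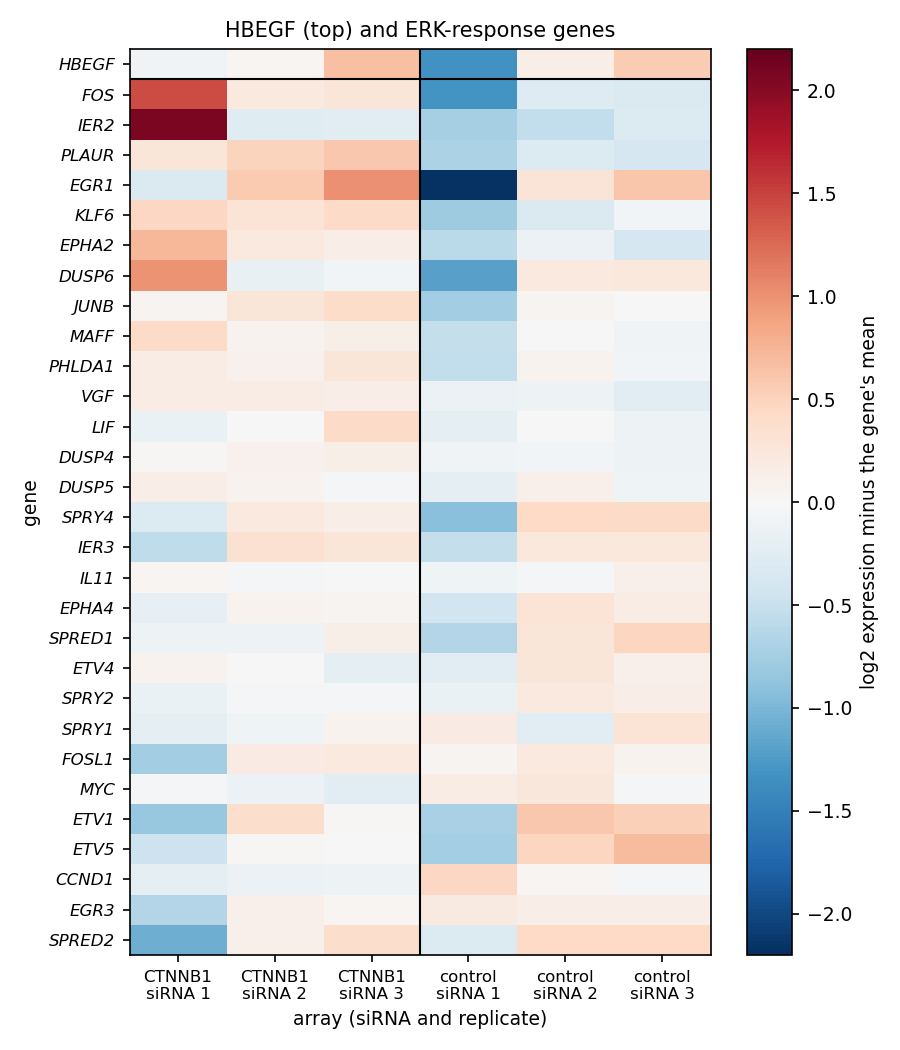
Log2 expression minus each gene's mean over 6 arrays for HBEGF (top row) and the 29 measured ERK-response genes, ordered by their difference, with CTNNB1 siRNA arrays left of the line and control siRNA arrays right of it. Control siRNA replicate 1 was lowest for HBEGF and for 19 of the 29 genes.

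The list of ligand shedding and trafficking holds proteases, proteins that carry or bind the ligand precursors, and TIMP3, an inhibitor of the ADAM proteases. Most of its genes had a higher mean after CTNNB1 siRNA, and none passed the test. All 16 listed genes were measured, 13 with a higher and 3 with a lower mean, and a median log2 difference of 0.25, beside -0.004 over all rows. The groups were apart for 9 of the 16, 8 higher and 1 lower, which is 56.2% beside 13.6% of all rows. TIMP3, chosen after its values were seen, was among the 8, with a difference of 0.26 (SE 0.15) from a dim row. Another TIMP3 row, also dim, differed by 0.10 (SE 0.17), and its groups overlapped. The markers of other cell types also had mostly higher means, 10 of 11, with 45.5% apart, and a difference between the lists was not tested. No gene passed in limma (adjusted p = 0.816 for the smallest), and 3 had an unadjusted p under 0.05, all higher, beside 3.04% of all rows in that direction. CD9, a tetraspanin that associates with the HBEGF precursor, was 11.32, 10.88 and 10.79 on CTNNB1 siRNA replicates 1 to 3, against 10.39, 10.46 and 10.55 on control siRNA replicates 1 to 3, a difference of 0.53 (SE 0.17). ADAM19, a metalloprotease, differed by 0.47 (SE 0.15) and RHBDL2, a rhomboid protease, by 0.39 (SE 0.14), both from dim rows. The groups were apart for these 3 genes.

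The main ligand sheddases, chosen after their values were seen, differed from each other in how their arrays lay. ADAM10, which sheds EGF and betacellulin in mouse cells, was 11.11, 11.37 and 11.34 on CTNNB1 siRNA replicates 1 to 3, against 10.48, 11.06 and 11.10 on control siRNA replicates 1 to 3, a difference of 0.39 (SE 0.20). Its groups were apart by 0.002 between the nearest arrays. ADAM17, which sheds TGFA, HBEGF, AREG and EREG in mouse cells, was 8.82, 8.11 and 7.88 on the CTNNB1 siRNA arrays, against 7.87, 8.20 and 7.93 on the control arrays, so its groups overlapped, with 1 high value on CTNNB1 siRNA replicate 1 and a difference of 0.27. The median of the list was 0.13 without CTNNB1 siRNA replicate 1 and 0.11 without both arrays numbered 1. Of its 16 genes 9, 56.2%, were lowest on control siRNA replicate 1, beside 20% of all rows. Highest on CTNNB1 siRNA replicate 1 were 6 of the 16, 37.5%, beside 24.7% of all rows. The epithelial markers, given above by array, had higher means on the CTNNB1 siRNA arrays too, and their part in these values was not tested.

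**Figure D4:**
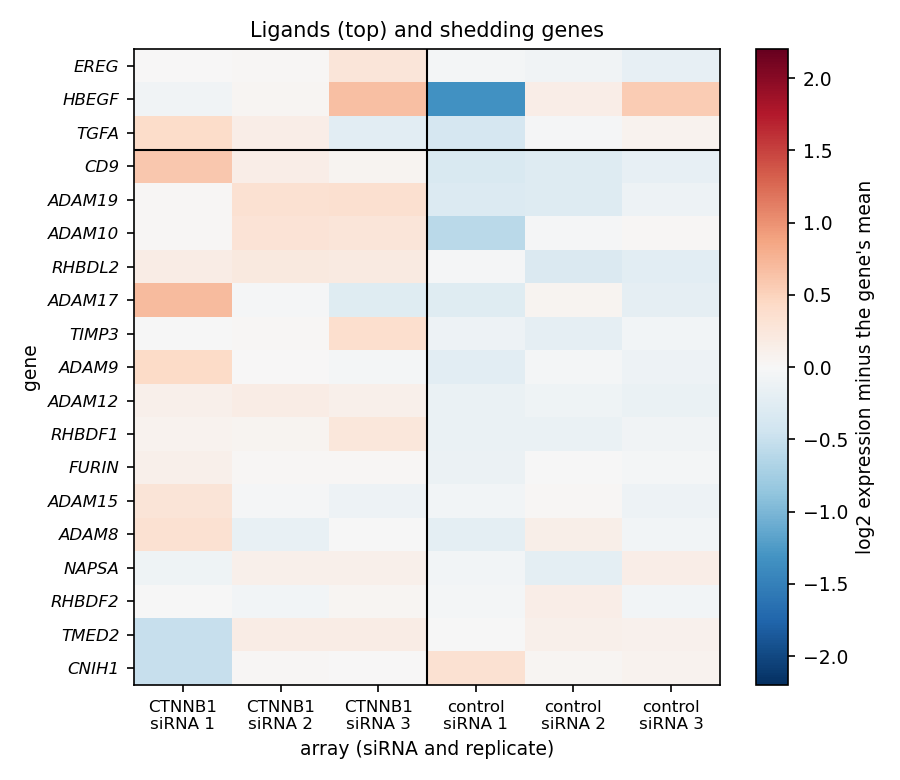
Log2 expression minus each gene's mean over 6 arrays for the ligands EREG, HBEGF and TGFA (above the line) and the 16 genes of ligand shedding and trafficking, ordered by their difference, with CTNNB1 siRNA arrays left and control siRNA arrays right. The groups were apart for 9 of the 16 genes, and CD9 and ADAM19 had the largest differences.

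Adaptors and effectors below the receptors showed no common direction. Of 42 listed genes 33 were measured, 16 higher and 17 lower, with a median log2 difference of -0.001, and the groups were apart for 6, 18.2%, near the 13.6% of all rows. No gene passed in limma, and 2 had an unadjusted p under 0.05, both higher, beside 3.04% of all rows in that direction. These were STAT5A, a signal transducer, with a difference of 0.40 (SE 0.15) from a dim row, and MAPK3, the gene of the kinase ERK1, which was 9.85, 9.83 and 10.10 on CTNNB1 siRNA replicates 1 to 3, against 9.41, 9.62 and 9.59 on control siRNA replicates 1 to 3. MAPK3 differed by 0.39 (SE 0.15) with the groups apart. PIK3R1, the regulatory subunit of PI3K, differed by -0.50 (SE 0.23). It was 8.97, 9.55 and 9.66 on the CTNNB1 siRNA arrays, against 10.22, 9.72 and 9.74 on the control arrays, so the groups were apart, with the nearest arrays 0.062 apart.

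Negative regulators and endocytic genes of the receptors had 28 measured members of 31 listed, 12 higher and 16 lower, with a median log2 difference of -0.014. The groups were apart for 6 of them, 21.4% beside 13.6% of all rows, 0 passed in limma and 3 had an unadjusted p under 0.05, 1 higher and 2 lower, beside 3.04% and 2.6% of all rows. AP2M1, a subunit of the clathrin adaptor that takes up EGFR, differed by -0.47 (SE 0.19), DNM2, the dynamin that cuts off the vesicles, by 0.42 (SE 0.17) and PTPN2, a phosphatase that acts on EGFR, by -0.49 (SE 0.20). ERRFI1, the feedback inhibitor of EGFR kinase activity, chosen after its values were seen, was 11.06, 12.11 and 11.96 on CTNNB1 siRNA replicates 1 to 3, against 10.61, 11.71 and 11.73 on control siRNA replicates 1 to 3. Its groups overlapped, and replicate 1 was the low array in each group.

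The remaining EGF family ligands and the related gene CRIPTO were mostly dim, 5 of 6 in the dimmest 40% of rows. CRIPTO, a co-receptor of NODAL with an EGF-like domain, was 1.89, 1.87 and 1.96 on CTNNB1 siRNA replicates 1 to 3, against 1.77, 2.95 and 2.91 on control siRNA replicates 1 to 3. The groups overlapped, since control siRNA replicate 1 was the lowest array, and the CRIPTO difference of -0.64 (SE 0.30) did not pass. CRIPTO was among the 5 dim genes, and 1.1% of all rows were dimmer. The neuregulin genes NRG2 and NRG3 differed by -0.048 and -0.052, and NRG1, chosen after its values were seen, by 0.030. Another NRG1 row, also dim, differed by 0.19 (SE 0.15), and its groups overlapped. Of the 6 genes 0 passed in limma and 0 had an unadjusted p under 0.05, beside 5.64% of all rows. The groups were apart for none of these 6 genes, beside 13.6% of all rows.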

How the data were processed

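RNA of 6 cultures of AGS cells was measured on Affymetrix Human Gene 1.0 ST arrays, 3 per siRNA. Each deposited value is the log2 expression of a transcript cluster (row). The submitters' processing notes name RMA and Affymetrix Expression Console 1.1 as the tools that the authors used. In RMA the background is subtracted, and the method brings the arrays to a common distribution and summarises probes, so a change shared by all genes would not be visible. The log2 scale was taken from the values. The build is not given in the sources used here. The number of arrays limits the precision, and nothing says that replicates came from separate passages, so p-values cover only the variation among these samples.

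Of 33297 rows, 19460 were paired with 1 gene symbol by the platform's annotation and tested. For 19429 of these the current symbol was taken from RefSeq through the gene identifier, whether or not it differed. Where a gene had several rows, the one with the highest mean stood for it. A 2-group model was fitted with lmFit and eBayes of limma 3.58.1 (R 4.3.3), 2-sided, with Benjamini-Hochberg adjustment over all 19460 rows, a threshold of 0.05 and no filter, and the procedure was tested on simulated data. Differences are CTNNB1 siRNA minus control siRNA. The alternatives were median scaling, leaving out the dimmest 40% of rows, array weights, a replicate block, eBayes with trend and robust, all rows tested, and each array left out. The fit without both arrays numbered 1 was chosen after seeing the data.

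The members and lists were chosen with earlier results of these data known. Genes named were all members, CTNNB1, up to 4 genes of each list past the threshold or otherwise the 3 with the smallest p, and the 3 nearest profiles of EGFR, ERBB3 and EREG. Others are said to have been chosen after their values were seen. Protein sequences were not used here.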

Additional observations from a re-analysis of the deposited data

How the results depend on the processing

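None of the 9 members passed the threshold in limma under any of the 13 alternatives in which it was tested, the 4 dim ones being absent without the dimmest rows (smallest adjusted p = 0.558, for ERBB3), and 11 of 113 member values changed sign. For ERBB3 the unadjusted p in limma was 0.0377 without CTNNB1 siRNA replicate 1 (adjusted p = 0.669) and 0.0411 with array weights (adjusted p = 0.558). In its other alternatives it was 0.0771 or more. Without both arrays numbered 1 the log2 difference was 0.012 for EGFR, -0.16 for ERBB2, -0.030 for ERBB4, -0.075 for TGFA and 0.003 for BTC, and 0.007 for HBEGF. With array weights ERBB2 was -0.059. Without control siRNA replicate 1, ERBB2 was -0.12, ERBB4 -0.014, HBEGF -0.14 and BTC 0.069, and without CTNNB1 siRNA replicate 1 ERBB2 was -0.012. Over the fits that left out 1 array, the ranges were -0.54 to -0.034 for EGFR, -0.12 to 0.15 for ERBB2, 0.18 to 0.37 for ERBB3, -0.014 to 0.16 for ERBB4 and 0.12 to 0.24 for EREG. They were -0.14 to 0.81 for HBEGF, 0.060 to 0.38 for TGFA, -0.15 to 0.069 for BTC and -0.18 to -0.035 for EGF. The cause of these moves was not tested.

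Over all rows 1 gene passed. The count was 0 with median scaling, without the dimmest 40% of rows, with the replicate block or with all rows tested, 13 with array weights, 2 without both arrays numbered 1, and 0 to 10 when 1 array was left out. At an unadjusted p under 0.05 the main fit had 1098 of 19460 rows. The alternatives had from 670 of 11676 rows, without the dimmest rows, to 1715 of 19460 rows, with array weights. The median of the ligands, 0.20, was 0.32 without the dimmest rows (2 genes left), 0.042 with array weights, 0.003 without both arrays numbered 1 and 0.060 to 0.21 when 1 array was left out. The median of the shedding list, 0.25, was 0.12 without the dimmest rows, 0.12 with array weights, 0.11 without both arrays numbered 1 and 0.13 to 0.25 when 1 array was left out. The median of the adaptors was -0.022 to 0.051 when 1 array was left out. Deviations from the group mean correlated at 0.0922, 0.12 and 0.098 between arrays with the same number, each array best with its own number, which is a hint from the data and not the design. The replicate block cannot move a difference in this balanced design, so HBEGF stayed at 0.43 by construction, and with it 0 members passed (HBEGF adjusted p = 0.743, and 0.743 to 0.997 over its alternatives). Each member had 1 row, so averaging rows changed nothing. Of the 9 members 4 lay in the dimmest 40% of rows, where the signal limits what can be seen.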
